A study of Mus musculus with 18 samples.

Results

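The antigen receptor loci are the stretches of mouse chromosomes that hold the gene segments of antibodies and T cell receptors. Regions bound by the zinc finger protein CTCF were described at 6 of them in mouse embryonic stem cells. A region was taken where its interval overlapped the mm10 span of the immunoglobulin heavy chain locus Igh (chr12:113200000-116100000), the kappa light chain locus Igk (chr6:67500000-70800000), the T cell receptor locus Tcra/Tcrd (chr14:52400000-54300000), Tcrb (chr6:40850000-41600000), Tcrg (chr13:19150000-19400000) or the lambda light chain locus Igl (chr16:19000000-19300000). This gave 256 of 59372 regions in the SKO list, 237 of 62238 in the TKO list and 264 of 71075 in the WT list, and 298 of 78072 regions once the 3 lists were merged.

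SKO cells lack Tet1, Tet2, Tet3, Dnmt1, Dnmt3a and Dnmt3b, TKO cells lack Tet1, Tet2 and Tet3, and WT cells carry all 6 genes. The study made 3 ChIP and 3 input samples for each genotype with an antibody to CTCF, 18 samples in 6 groups, from cells grown in serum replacement and LIF on irradiated mouse embryonic fibroblasts. Each genotype is a line of its own, so the missing enzymes cannot be told apart from other differences between the lines, and the part of feeder chromatin in any result was not tested. Each peak list was called on the pooled replicates of a genotype, so no value here has a spread between replicates and no test between genotypes was possible. Intervals on shares are 95% Wilson intervals and intervals on pileups are exact 95% Poisson intervals. Both cover counting error only, since the replicates were pooled. The libraries were amplified by PCR and no molecular identifiers are mentioned, so the Poisson intervals do not allow for any PCR copies left among the fragments. Where a count was 0, the share it allows was instead taken as 3 over the number of regions.

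In B and T cells, the RAG enzymes join V, D and J segments of these loci into the coding sequence of a receptor chain. CTCF, with cohesin, is known to set the loops that bring distant V genes near the D and J genes and to separate enhancers from neighbouring chromatin, and its sites are known to be dense in Igh and Tcra/Tcrd. Embryonic stem cells do not rearrange these loci, so the sites are seen here in germline order. DNMT enzymes place methyl groups on CpG cytosines and TET enzymes oxidise them, and CTCF is known to bind some of its sites poorly when they are methylated.

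RefSeq annotation of GRCm38.p6 (mm10) put 666 V, D, J and constant segments in the 6 spans and 20 elsewhere, and 527 of the 666 were V genes or V pseudogenes. The promoter table of the same release held windows of 42 genes in the spans, and regions of the lists touched windows of 2 of them. These 2 sequences are shown because 1 belongs to a region called in SKO cells alone and the other to a region missing from SKO cells alone. Gm30948 is annotated as a long non-coding RNA gene in the V part of Igh, with its window at chr12:115262401-115262700 on the plus strand. Rpia, which encodes ribose 5-phosphate isomerase, lies beyond Igkc, with its window at chr6:70792126-70792425 on the minus strand. Each sequence runs 5′ to 3′ along the gene, with 250 bases before the gene start, and capitals mark a match to either of 2 short forms of the CTCF core, AGGNGGC and CAGNGGG, searched on both strands. The forms share letters and can overlap, and the second was added after the Gm30948 sequence had been seen.
Gm30948: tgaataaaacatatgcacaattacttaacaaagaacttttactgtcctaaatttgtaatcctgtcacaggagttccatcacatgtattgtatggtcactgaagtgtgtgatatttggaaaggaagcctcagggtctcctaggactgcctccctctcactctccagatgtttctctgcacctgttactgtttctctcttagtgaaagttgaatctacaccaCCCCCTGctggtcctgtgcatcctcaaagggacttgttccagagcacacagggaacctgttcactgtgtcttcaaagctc
Rpia: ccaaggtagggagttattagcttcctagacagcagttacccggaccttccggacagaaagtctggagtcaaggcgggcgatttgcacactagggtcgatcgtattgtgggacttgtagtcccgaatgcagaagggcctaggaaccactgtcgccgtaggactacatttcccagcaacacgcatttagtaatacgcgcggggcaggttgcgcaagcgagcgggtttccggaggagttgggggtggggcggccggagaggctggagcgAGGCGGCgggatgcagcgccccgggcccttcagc

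The Gm30948 window held 1 match to CAGNGGG, at position 221 of 300, no match to AGGNGGC and 0 CpG dinucleotides. The Rpia window held 1 match to AGGNGGC, at position 267, no match to CAGNGGG and 24 CpG dinucleotides. Of 32851 promoter windows of that length, 29.4% held AGGNGGC, 25.7% held CAGNGGG, the median window held 7 CpG, and 20.0% held at least as many as Rpia. The SKO region over the Gm30948 window (chr12:115262509-115262725) had a fold enrichment of 4.88 and a pileup of 25 fragments (16.2 to 36.9). The region over the Rpia window (chr6:70792101-70792342) had a fold of 5.63 and a pileup of 27 (17.8 to 39.3) in TKO cells, and a fold of 6.43 and a pileup of 36 (25.2 to 49.8) in WT cells. Fold enrichment is the authors' value at the summit, the ChIP pileup plus 1 over the local background plus 1. A region missing from a list was not called there, which is not a measured absence of CTCF.

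The loci were bound at very unequal density. Tcra/Tcrd held 86 SKO, 87 TKO and 94 WT regions, or 45.3, 45.8 and 49.5 regions per Mb. Igh held 83 SKO, 71 TKO and 82 WT regions, or 28.6, 24.5 and 28.3 per Mb. Igk, the longest span, was the sparsest of the 6, with 56 SKO, 49 TKO and 55 WT regions, or 17.0, 14.8 and 16.7 per Mb. Over chromosomes 1 to 19 and X the lists averaged 23.1 regions per Mb in SKO, 24.2 in TKO and 27.6 in WT, so Tcra/Tcrd stood above that density and Igk below it in each list. Tcrb held 16 SKO, 14 TKO and 18 WT regions, Tcrg held 9, 10 and 9, and Igl held 6 in each list.

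Igk also had the lowest median WT fold of the 3 large loci. The median WT fold was 7.74 in Igk, 11.9 in Tcra/Tcrd and 10.8 in Igh, against 10.0 over chromosomes 1 to 19 and X. In Igk, 32.1% of SKO regions, 28.6% of TKO regions and 32.7% of WT regions lay above the median −log10 q of their own list, where 50% would by construction. The corresponding shares were 54.7%, 57.5% and 56.4% in Tcra/Tcrd and 57.8%, 56.3% and 53.7% in Igh.

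**Figure D1:**
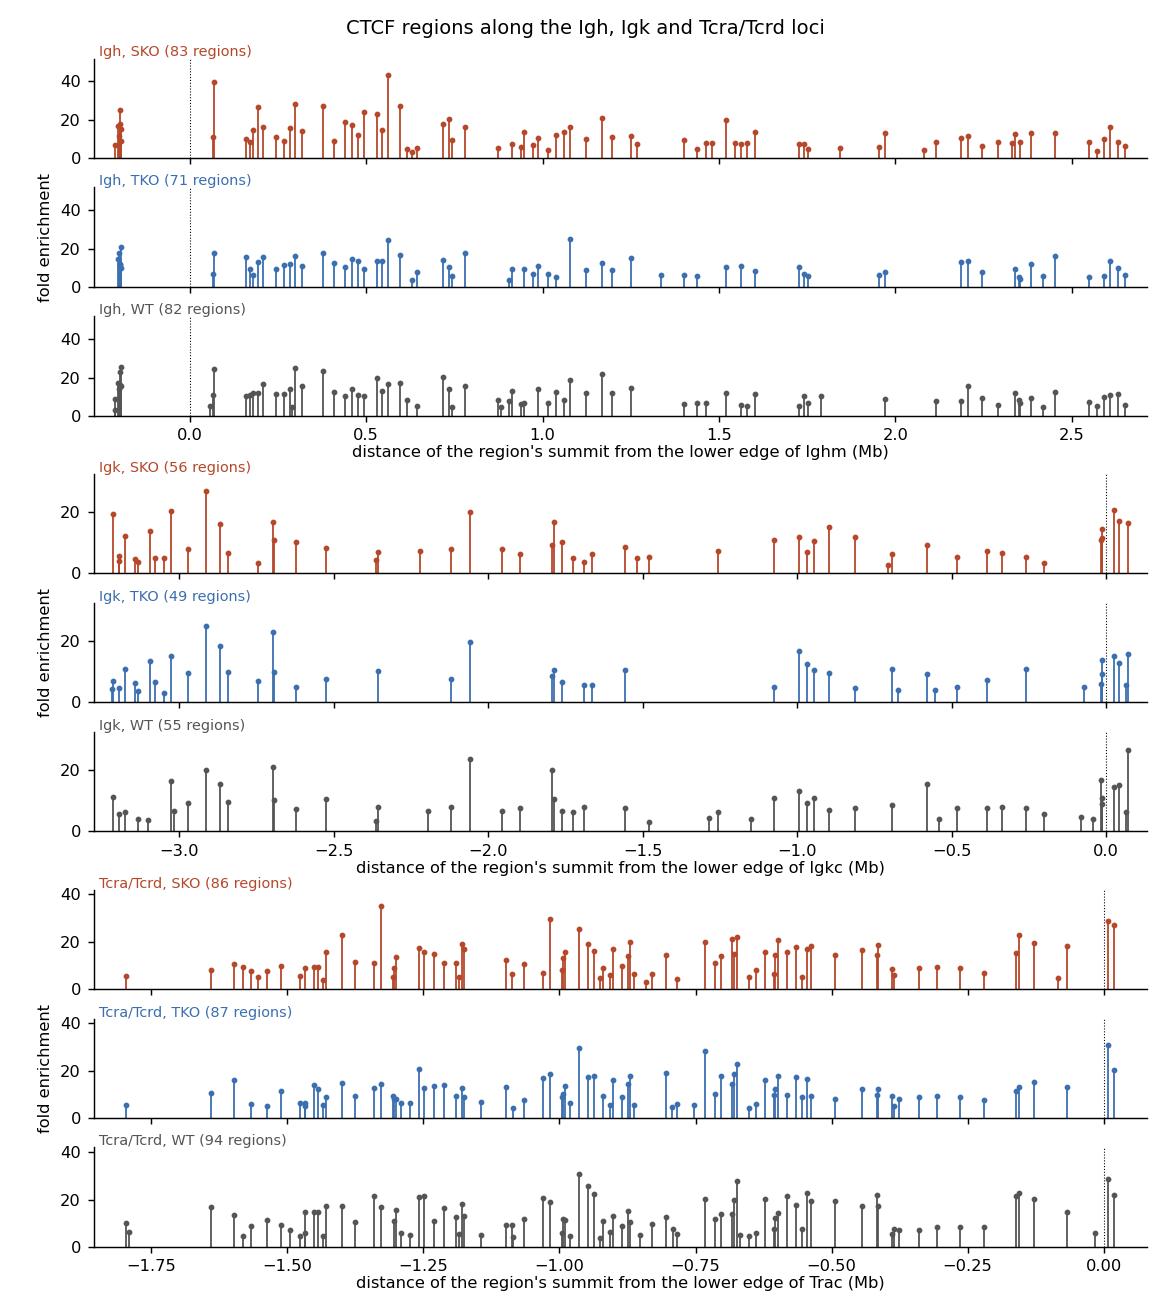
Fold enrichment of each CTCF region (vertical axis) by distance from the lower edge of a constant gene in Mb (horizontal axis), for SKO, TKO and WT in the Igh, Igk and Tcra/Tcrd loci; each line with a dot is 1 region of the authors' list and the dotted line marks the constant gene. Regions are dense across Tcra/Tcrd and over the Igh V genes nearest the D genes, and sparse in Igk. The widest gap in Igh lies over the constant, J and most D genes, Ighm among them.

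Igh held a cluster of regions beyond its constant genes and no region over those genes. Beyond the constant end of Igh, where a cluster of CTCF sites is known to border the locus past its enhancers, 6 regions of all 3 lists lay within chr12:113215886-113224597. The strongest of them (chr12:113221983-113223218) had a fold of 15.1 in SKO, 20.8 in TKO and 25.6 in WT cells. Its pileup was 190 in SKO, 190 in TKO and 214 in WT cells. Its nearest receptor gene was Igha, the constant gene of IgA, 33.9 kb away.

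The next 252 kb (chr12:113224598-113476757) held no region of any list. This gap spanned all 8 Igh constant genes, including Ighm and Ighd, all 4 J genes and 16 D genes or D pseudogenes. It was bounded on the V side by a weak region found in WT alone (chr12:113476758-113477110), with a fold of 4.82 and a pileup of 14. In Tcrb a gap of 284 kb (chr6:41272466-41556346) held 8 protein-coding genes, 6 of them trypsinogen genes of the Prss and Try names, with 2 D, 14 J and 2 constant genes and 1 V gene. The widest gap of Igk, 195 kb, held 13 V genes or V pseudogenes. Median spacing between neighbouring merged regions was 20.5 kb in Igh, 33.4 kb in Igk, 13.8 kb in Tcra/Tcrd and 8.87 kb in Tcrb, against 13.1 kb over chromosomes 1 to 19 and X.

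On the V side of Ighd1-1, a D gene, a pair of CTCF sites known as intergenic control region 1 keeps the nearest V genes from recombining too early. Regions of all 3 lists lay on that side at chr12:113485061-113485455 and chr12:113487673-113488128, with summits 3.07 kb and 5.71 kb from Ighd1-1. The region farther from Ighd1-1 had a fold of 39.8 in SKO, 17.7 in TKO and 24.5 in WT cells. Its pileups were 105 (85.9 to 127) in SKO, 89 (71.5 to 110) in TKO and 114 (94.0 to 137) in WT cells. These unscaled intervals overlapped although the folds ran apart. Divided by the median ratio of all shared regions, its pileup ratio was 1.26 for SKO over WT, 1.44 for SKO over TKO and 0.874 for TKO over WT. The local background beneath this region was 1.66 fragments in SKO, 4.09 in TKO and 3.70 in WT cells. The region nearer Ighd1-1, chosen after its values were seen, had pileups of 25, 22 and 30 in SKO, TKO and WT cells.

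The interval between the V and J genes of Igk is known for the Cer and Sis elements, which hold CTCF sites that hold back joining of the nearest V genes. It held 3 regions of all 3 lists, 2 of them chosen after their values were seen. The one nearest Igkj1 (chr6:70714147-70714624) had pileups of 45 (32.8 to 60.2) in SKO, 73 (57.2 to 91.8) in TKO and 65 (50.2 to 82.8) in WT cells. At chr6:70709279-70710070, nearest Igkv3-1, pileups were 46 in SKO, 38 in TKO and 64 in WT cells. At chr6:70713099-70713480 they were 42, 46 and 50 in that order of genotypes.

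Past the constant end of Tcra/Tcrd, the interval between the constant gene Trac and the housekeeping gene Dad1 is known to hold the enhancer and locus control region of Tcra. The strongest region of the locus by WT −log10 q lay there (chr14:54227812-54228598), 3.98 kb from Trac. It had a fold of 28.8 in SKO, 30.7 in TKO and 28.7 in WT cells, and pileups of 162 (138 to 189), 206 (179 to 236) and 263 (232 to 297) in SKO, TKO and WT cells. The region inside Dad1 (chr14:54238830-54239481) had pileups of 116 in SKO, 135 in TKO and 176 in WT cells. A region at chr14:54152832-54153236, between Trdv5, a delta V gene, and Traj61, had pileups of 65 in SKO, 69 in TKO and 79 in WT cells. The region nearest the constant gene Trdc, 6.72 kb away, was called in SKO alone, with a fold of 4.54 and a pileup of 10.

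In Tcrb a region of all 3 lists (chr6:41556347-41556785) lay 1.09 kb from Trbv31, the V gene that sits beyond the constant genes in opposite orientation. It had pileups of 29 in SKO, 32 in TKO and 32 in WT cells. In Igl the 6 regions were the same in each list, and the strongest by WT −log10 q (chr16:19002634-19003415) had pileups of 54 in SKO, 75 in TKO and 94 in WT cells. In Tcrg, 9 of 10 merged regions were in all 3 lists, and the other was a TKO region (chr13:19335212-19335453) 9.11 kb from the constant gene Trgc4, with a fold of 4.85.

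The V genes, counted here with V pseudogenes, differed by locus and family in how often a CTCF summit lay beside them. A summit lay within 1 kb of 48 of 136 V genes of Tcra/Tcrd in SKO, 48 in TKO and 53 in WT cells, and of 40 of 184 in Igh in SKO, 37 in TKO and 40 in WT cells. In Igk only 1 of 162 V genes had one in SKO, 1 in TKO and 3 in WT cells, and the median Igk V gene was 22.3, 28.6 and 19.1 kb from a summit in those lists. In Tcrb the counts were 6, 5 and 6 of 35 V genes. Over the 6 loci, 85, 83 and 90 of 374 V genes without the pseudogene label had a summit within 1 kb in SKO, TKO and WT cells, and 12, 10 and 14 of 153 V pseudogenes had one.

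Within a locus the families stood apart. Of the 11 Ighv2 genes, which lie toward the D genes, 6 had a summit within 1 kb in each list, and of the 21 Ighv5 genes 8 did. All 8 were without the pseudogene label, and no Ighv5 pseudogene had a summit within 1 kb in any list. Of the 7 Ighv6 genes, 4 had one in SKO, 4 in TKO and 3 in WT cells. Of the 92 Ighv1 genes, the large family that fills the far part of the locus, 8 did in SKO, 7 in TKO and 9 in WT cells. Of the 10 Trav12 genes, 7 had one in SKO, 9 in TKO and 9 in WT cells, and of the 11 Trav9 genes 8, 7 and 8 did, while 0 of 13 Trav13 genes, 0 of 9 Trav14 genes and 0 of 9 Trav15 genes did in any list. Of the 15 Trav6 genes, 7 had one in SKO, 5 in TKO and 9 in WT cells. Families of fewer than 5 genes were not counted apart, and near-identical copies may share or split reads, and no source used here states how such reads were filtered.

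Families also differed in the distance from gene to nearest summit. Over all 11 Ighv2 genes the median distance was 0.074, 0.082 and 0.071 kb in SKO, TKO and WT cells. That median was the farthest of the 6 Ighv2 genes within 1 kb, and the others lay 1.38 to 25.9 kb away in SKO cells. Over all 21 Ighv5 genes the median was 1.82, 1.83 and 1.82 kb, and over all 92 Ighv1 genes it was 10.2, 13.7 and 12.1 kb. Every Ighv2, Ighv5 and Trav12 gene counted within 1 kb had its summit within 200 bp in each list. The same held for the Ighv3, Ighv6, Ighv8 and Trav6 genes counted within 1 kb, whereas 0 of 92 Ighv1 genes had a summit within 200 bp in any list. For Trav9 the distance, taken only over the genes within 1 kb and so bounded by that limit, had a median of 287, 282 and 288.5 bp. The strongest Igh region by WT −log10 q (chr12:113716326-113716896) had its summit 69 bp from Ighv2-6. It had pileups of 348 (312 to 387) in SKO, 251 (221 to 284) in TKO and 338 (303 to 376) in WT cells, and stood at percentile 99.8 of the SKO list, 98.7 of the TKO list and 99.6 of the WT list by −log10 q.

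**Figure D2:**
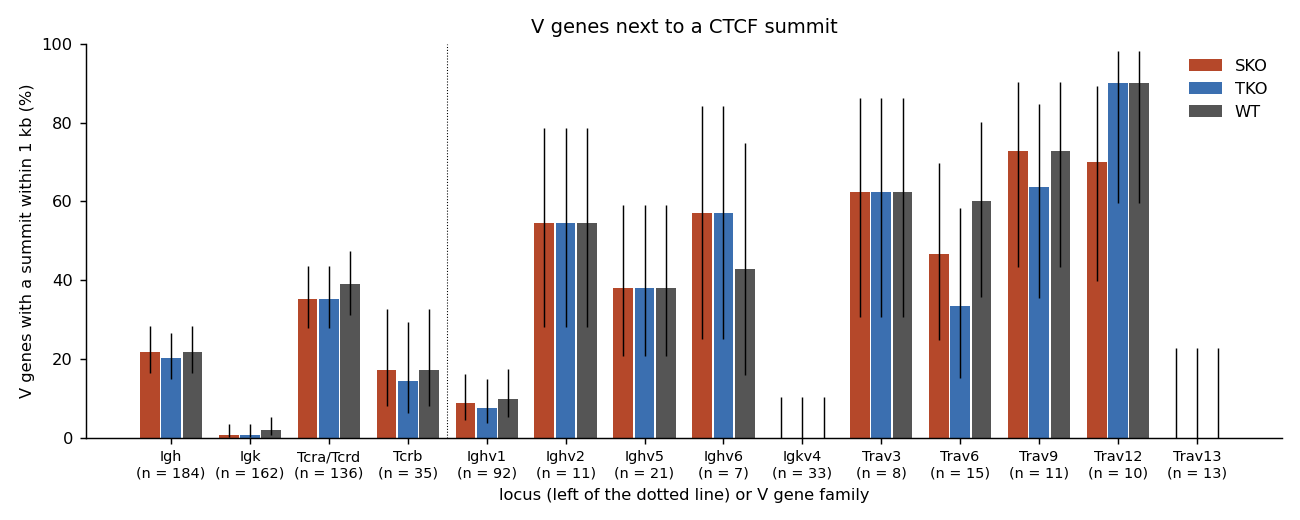
Share of V genes with a CTCF summit within 1 kb (vertical axis, percent) for SKO, TKO and WT, by locus to the left of the dotted line and by V gene family to its right, with the number of V genes under each name and 95% Wilson intervals. Trav12, Trav9 and Trav3 stand high and Igkv4 and Trav13 at 0 in each list, and the intervals of the 3 genotypes overlap in every set shown.

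Most regions were common to the genotypes. Of the 298 merged regions, 207 (69.5%, 64.0 to 74.4) were in all 3 lists, against 66.3% of merged regions of the whole series. In Igk this share was 38 of 70 (54.3%, 42.7 to 65.4), in Igh 64 of 92 and in Tcra/Tcrd 76 of 101. These shares were not matched for strength, and Igk regions were the weaker by −log10 q. Regions outside the outermost receptor genes of a locus were in all 3 lists in 28 of 33 cases, and regions whose nearest receptor gene was a V gene in 172 of 255 (67.5%). Those shares were likewise not matched for strength. The outer regions had median folds of 12.5 in SKO, 11.2 in TKO and 11.4 in WT cells, against 9.88, 9.42 and 10.4 for the V gene regions. Regions found in both knockouts and not in WT made up 11 of 298 (3.69%, 2.07 to 6.49), against 1.64% of the whole series. Of the 11, 6 were among the 70 merged regions of Igk, several of them in a single stretch described below. The interval treats regions as independent, so it does not allow for such a cluster.

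TKO cells were without 46 of the 264 WT regions (17.4%, 13.3 to 22.5), close to the 19% of all WT regions that had no TKO region. Igk had the largest share among the 3 large loci, with 16 of 55 (29.1%), against 15 of 82 in Igh and 11 of 94 in Tcra/Tcrd. The intervals of Igk (18.8 to 42.1) and Tcra/Tcrd (6.66 to 19.8) overlapped slightly. All 46 lay below the median −log10 q of the WT list: of the 132 WT regions above it 0 were missing, which allows a share of up to 2.27%, where 0.355% of such regions were missing over the whole list. Below that median 46 of 132 were missing (34.8%), against 37.6% over the whole list. The shares by locus were not matched for strength. Above that median lay 32.7% of WT regions in Igk, 53.7% in Igh and 56.4% in Tcra/Tcrd. TKO cells had 19 of 237 regions with no WT region (8.02%, 5.19 to 12.2), against 7.49% over the whole TKO list. The 19 included 10 of the 49 TKO regions of Igk.

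Among the WT regions missing from TKO, the highest WT fold was at Tcrb (chr6:41253694-41254013), 4.28 kb from Trbv27. The SKO list held it with a fold of 4.34 and a pileup of 12 (6.20 to 21.0), and the WT list with a fold of 11.6 and a pileup of 32 (21.9 to 45.2). The second was at Igh (chr12:115209176-115209453), 820 bp from Ighv1-55, with a fold of 10.5 and a pileup of 28 (18.6 to 40.5) in WT cells and no region in either knockout. Both WT folds were above the median fold of 10.0, although the regions stood at percentiles 48.0 and 43.3 of the WT list by −log10 q. The other 4 of highest WT fold were all in the SKO and WT lists, with WT folds of 8.03 to 9.80, and lay near Trav7-2, Trav6n-6 and Igkv8-16 and in the border beyond Igha.

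The TKO region of highest fold with no WT partner was at Igk (chr6:67631658-67632015), between Igkv1-135 and Igkv14-134-1, and it was also the highest in SKO. Its fold was 13.9 in SKO and 13.4 in TKO cells, with pileups of 32 (21.9 to 45.2) and 42 (30.3 to 56.8), and no WT region was called there. It lay above the median −log10 q of both knockout lists, where only 11 SKO regions and 10 TKO regions of the whole lists had no WT partner (0.0371% and 0.0321%). On each side, at chr6:67582615-67583327, chr6:67646575-67646894 and chr6:67675217-67675538, stood 3 weaker regions of both knockouts without a WT partner, the last chosen after its values were seen. Their folds were 4.64, 5.01 and 4.88 in SKO and 6.24, 6.58 and 3.15 in TKO cells. Within the same stretch, 1 region was called in WT alone, at chr6:67625837-67626105, with a fold of 3.50, also chosen after its values were seen. Outside this stretch, the TKO regions of highest fold without a WT partner were one 357 bp from Trav5d-2, with a fold of 5.07 in SKO and 9.36 in TKO cells, one in Igk (chr6:67982326-67982583), 27.7 kb from Igkv9-123, with a fold of 3.19 in SKO and 6.87 in TKO cells, and one 78 bp from Ighv6-3, with a fold of 6.67 in SKO and 6.54 in TKO cells. A strong region beside the Igk stretch (chr6:67698966-67699442) had pileups of 148 in SKO, 180 in TKO and 142 in WT cells. Divided by the median ratio of all shared regions, its pileup ratio was 1.42 for SKO over WT and 1.42 for TKO over WT. In the window chr6:67500000-68000000, chosen after its values were seen, the median of such ratios was 1.27 for SKO and 1.26 for TKO over WT. Over all of Igk these medians were 1.17 and 0.942.

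SKO cells were without 34 of the 264 WT regions (12.9%, 9.36 to 17.5), below the 21.9% of all WT regions that had no SKO region. The shares were 8 of 82 in Igh (9.76%, 5.03 to 18.1), 10 of 55 in Igk and 13 of 94 in Tcra/Tcrd, likewise not matched for strength. Again none of the 132 WT regions above the median was missing (0 of 132, which allows up to 2.27%), against 0.51% over the whole list. Below the median 34 of 132 were missing (25.8%, 19.1 to 33.8), against 43.3% over the whole list. SKO cells had 26 of 256 regions with no WT region (10.2%, 7.03 to 14.5), against 6.59% over the whole SKO list. The 26 included 11 of the 56 SKO regions of Igk and 9 of the 83 of Igh. SKO thus held 97.0% as many regions as WT in the loci, and 83.5% as many over chromosomes 1 to 19 and X. For TKO these values were 89.8% and 87.6%.

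The WT regions missing from SKO with the highest WT fold were the one near Ighv1-55 given above and a second in Igh (chr12:115769649-115769972), 4.16 kb from Ighv8-13, with a fold of 5.32 in TKO and 8.23 in WT cells. After the Igk region between Igkv1-135 and Igkv14-134-1, 4 of the next 5 SKO regions by fold with no WT partner were in the Ighv1 part of Igh, and the other was near Igkv14-100. The 4 lay nearest Ighv1-44, Ighv1-37, Ighv1-71 and Ighv1-18, with SKO folds of 7.60, 7.51, 7.51 and 7.18 and pileups of 17, 19, 19 and 16. None of the 4 had a TKO region.

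**Figure D3:**
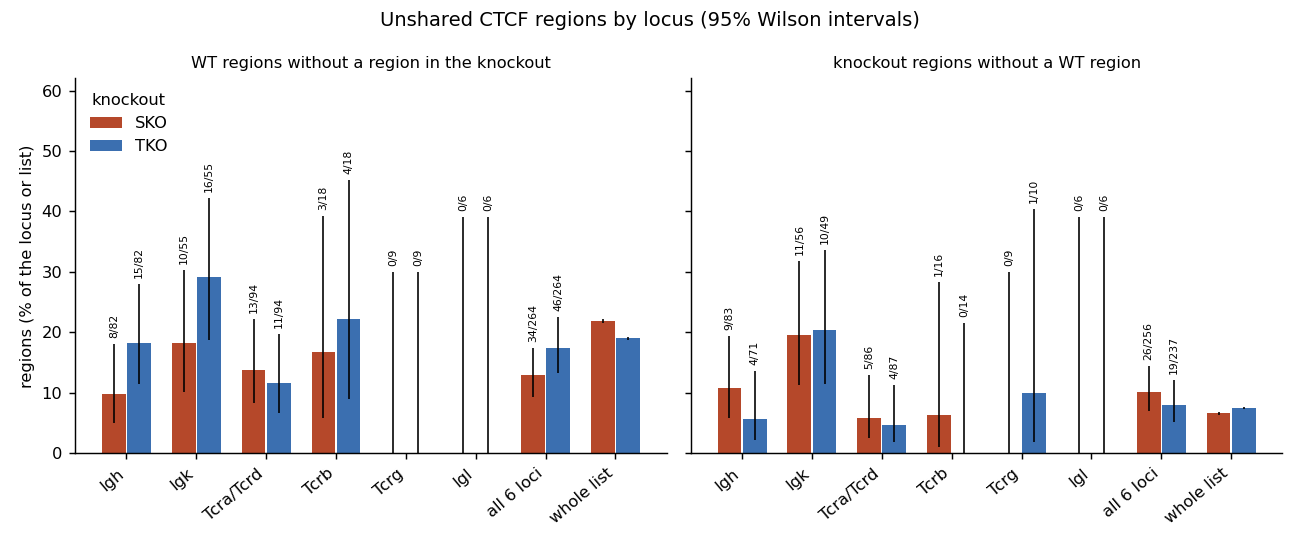
Percent of WT regions without a region in the knockout (left) and of knockout regions without a WT region (right) by locus, over the 6 loci and over the whole list, for SKO and TKO; bars carry 95% Wilson intervals and the counts behind them. SKO lacks 34 of 264 WT regions at the 6 loci against 21.9% over the whole list, and Igk has the highest share of extra regions among the 3 large loci in both knockouts. The shares are not matched for strength.

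Between the knockouts, SKO cells were without 19 of the 237 TKO regions (8.02%, 5.19 to 12.2), against 14.5% over the whole TKO list. Of the missing ones, 0 lay above the median −log10 q of the TKO list, where 0.174% of such TKO regions had no SKO region over the whole list. SKO cells had 38 of 256 regions with no TKO region (14.8%, 11.0 to 19.7), against 10.4% over the whole SKO list. The 38 included 16 of the 83 SKO regions of Igh and 12 of the 56 of Igk. The SKO region of highest fold among the 38 (chr12:114478749-114479106) had its summit 52 bp from Ighv10-1. It was the 1 of the 38 above the median of the SKO list, where 0.0674% of such SKO regions had no TKO region over the whole list. Its fold was 13.5 in SKO and 7.98 in WT cells, with pileups of 31 and 21, and no TKO region was called. All 6 of the TKO regions of highest fold with no SKO region were in the V part of Tcra/Tcrd, with TKO folds of 6.03 to 7.81, and each was also in the WT list.

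Relative to the whole series, ChIP pileup at shared regions had its highest SKO over WT median in Igh among the 6 loci. By fold enrichment the Igh median was also above 1, but nearer to it and not the highest of the 6. At the 64 Igh regions of all 3 lists, the median pileup was 51.5 fragments in SKO, 44 in TKO and 51 in WT cells, whereas over the whole series it was 41, 50 and 56. Each pileup ratio was divided by its median over all shared regions of chromosomes 1 to 19 and X, which was 0.733 for SKO over WT, 0.894 for TKO over WT and 0.821 for SKO over TKO. The centred ratio then had a median of 1.40 for SKO over WT in Igh (quartiles 1.22 to 1.67), and 67 of 74 regions lay above 1. It was 1.39 for SKO over TKO, with 60 of 67 above 1, and 0.995 for TKO over WT, with 32 of 67 above 1. Every window of 0.5 Mb of Igh had a SKO over WT median above 1, with values of 1.27 to 1.77.

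The ratio was lower around the locus. Over the 2 Mb before and the 2 Mb after Igh the SKO over WT median was 1.13 in each, and over the rest of chromosome 12 it was 1.08. The local background, which MACS2 derives from input, moved with it: relative to the genome-wide background it was 1.23 for SKO over WT at the Igh regions, against 1.02 before and 1.00 after the locus. The fold, in which local background is divided out, gave a centred median of 1.12 for SKO over WT in Igh. This fold median was 1.13 in Tcrb, 1.04 in Igk and 1.01 in Tcra/Tcrd. Around Igh it was 1.04 over the 2 Mb before, 0.995 over the 2 Mb after and 1.00 over the rest of chromosome 12. For SKO over TKO it was 1.10 in Igh and 1.11 in Tcrg, and 1.09, 0.881 and 0.994 in those parts of chromosome 12. A pileup is not corrected for input, so in the pileup ratios of Igh, and in those over the 2 Mb after Tcra/Tcrd, CTCF signal cannot be told apart from the number of DNA copies in each line. The part of the input level in the number of SKO regions called in Igh was not tested.

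For SKO over WT the centred pileup median of the other loci lay nearer 1 than that of Igh, at 1.17 in Igk (quartiles 0.980 to 1.36, which overlap those of Igh), 1.12 in Tcrb, 1.00 in Tcra/Tcrd, 1.00 in Tcrg and 0.805 in Igl, where 6 regions were shared. For TKO over WT Igh lay nearest 1, and the median was 0.942 in Igk, 1.08 in Tcra/Tcrd, 1.10 in Tcrb, 0.927 in Tcrg and 1.07 in Igl. Tcra/Tcrd lay at a step in its chromosome. Over the 2 Mb after it the median was 0.764 for SKO over WT and 0.807 for TKO over WT, against 1.07 and 1.04 over the 2 Mb before it. Both ratios share the WT values, and for SKO over TKO the median was 0.904 after the locus and 1.03 before it. The local background ratio after the locus was 0.757 for SKO over WT and 0.813 for TKO over WT. Over the rest of chromosome 14 the pileup medians of these 2 ratios to WT were 0.851 and 0.874. With local background divided out, the centred fold after the locus was 0.941 for SKO over WT and 0.95 for TKO over WT. The region beyond Trac and the one in Dad1, at that end of the locus, had centred ratios of 0.840 and 0.899 for SKO over WT and 0.877 and 0.858 for TKO over WT.

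**Figure D4:**
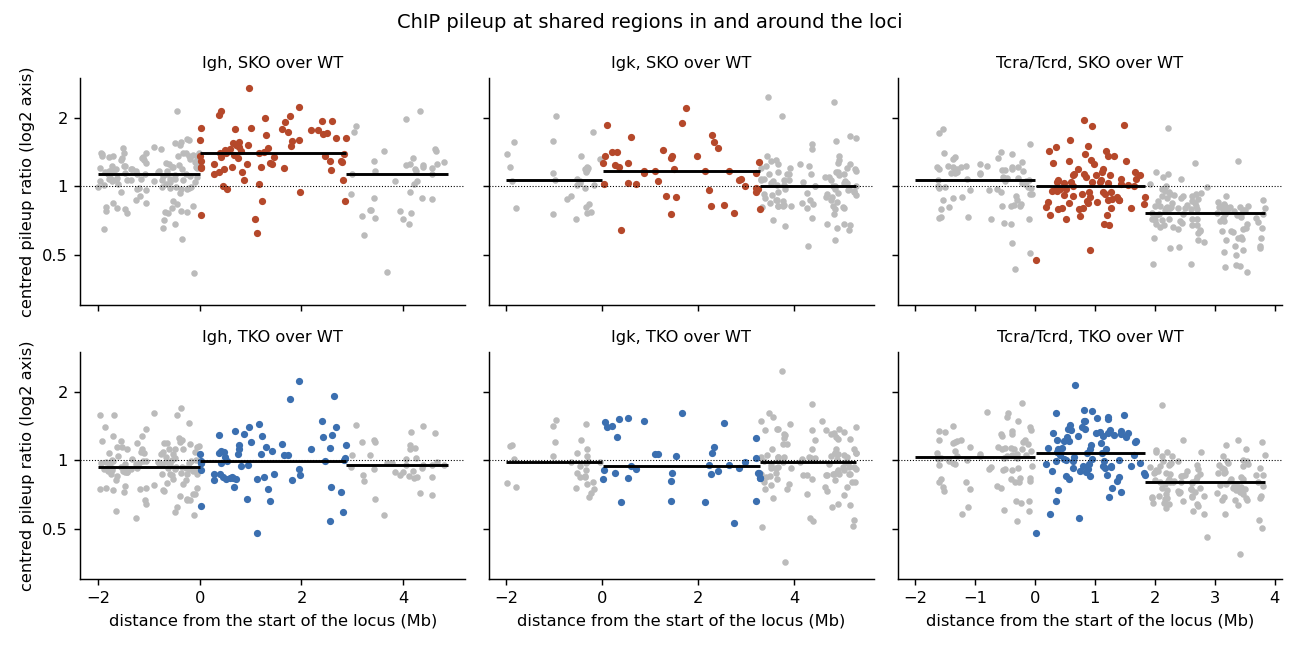
Centred ChIP pileup ratio of knockout over WT (vertical axis, log2 scale) at each shared region by distance from the start of the locus in Mb, for SKO (upper row) and TKO (lower row) in Igh, Igk and Tcra/Tcrd; coloured dots are regions of the locus, grey dots regions of the 2 Mb on each side, and black bars their medians. In Igh the SKO median is 1.40 against 1.13 on both sides. After Tcra/Tcrd both ratios, which share the WT values, are lower, at 0.764 for SKO and 0.807 for TKO.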

How the data were processed

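Per the labels, each deposited list was called by the authors on 3 pooled ChIP replicates against input. Tools listed in the submitters' processing notes were MACS2 2.1.2, Bowtie2 2.3.4 and SAMtools 1.9, with the mm10 build. Read totals and read filters were not used here. Each deposited row holds a score, a fold (ratio) and −log10 p and q at the summit. Rows of 1 interval were joined, keeping the strongest summit, and regions were shared when they overlapped by at least 1 bp (the counts were equal in bedtools 2.31.1). Pileup and background were solved from fold and −log10 p, with whole pileups for 100% of regions at a relative tolerance of 1e-04. The lowest background, a measure of depth, was 1.37 in SKO, 1.82 in TKO and 1.76 in WT. Python 3.11.15 with pandas was used, and overlap and pileup steps were tested on simulated data. Regions were named by a rule: the 3 of highest WT −log10 q per locus, the 6 missing and 6 extra of highest fold per comparison, and those nearest landmark genes. Members and lists were chosen with earlier results of these data known, and the pileup ratios, flanks and families after values were seen.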

Additional observations from a re-analysis of the deposited data

How the results depend on the processing

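No paired analysis was possible because the authors pooled the replicates in each list, and for the same reason no replicate could be left out. Of 93 values under other settings (−log10 q of at least 5, summits counted one by one, summits between the outermost receptor genes, summits within 100 bp, an overlap of at least 50%), 87 stayed within 1.5 times. The other 6 were counts of small loci under the limit to receptor genes: Tcrg held 4 SKO, 5 TKO and 4 WT regions and Igl 3 in each list. The alternatives for the centred pileup ratio were added after seeing the data, and 6 of their 36 values changed side of 1. With fold in place of pileup, TKO over WT in Igk was 1.08 and SKO over TKO in Tcra/Tcrd 1.06. Scaled by genome-wide background, Tcra/Tcrd was 0.932 for TKO over WT, 0.944 for SKO over WT and 1.04 for SKO over TKO. With −log10 q of at least 5, SKO over WT in Tcra/Tcrd was 0.987. The cause was not tested. The Igh ratio of SKO over WT stayed above 1 under each of the 4, lowest at 1.12 with fold. Pileups of 7 to 348 fragments in the members, and the pooling, limit what can be said of single regions.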
